A study of Drosophila melanogaster with 24 samples.

Results

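The genes followed here in single embryos act during cellularization of the *Drosophila* blastoderm. They are *nullo* (FBgn0004143), *bnk* (bottleneck, FBgn0004389), *slam* (slow as molasses, FBgn0043854), *Sry-alpha* (serendipity alpha, FBgn0003510) and *halo* (FBgn0001174). The 5 genes were taken by name from a count table of 17370 genes, with no threshold on their values, although earlier results of these data were known when they were chosen. The table holds RNA-seq read counts of 24 single embryos. Wild-type embryos were of the OrR strain. AcfC embryos carried a CRISPR deletion of most of *Acf*, which encodes the large regulatory subunit of the nucleosome remodelling complexes ACF and CHRAC, with the untranslated parts left in place. The AcfC line was backcrossed to OrR for 8 generations. Whether the chromosome region next to the deletion also became that of OrR was not tested. *bnk* and *Sry-alpha* lie on 3R, the chromosome arm whose end holds *Acf*, so that this limit may touch them. Embryos of both genotypes were laid over 0 to 45 min at 25 °C, received no treatment, and were sorted by morphology into Bownes Stage 3 (about 1 h, preblastoderm, before zygotic genome activation, ZGA) and Bownes Stage 8 (about 4 h, gastrula, after ZGA). There were 6 embryos per genotype and stage. The study left out a single AcfC preblastoderm embryo as wrongly staged. It was taken to be replicate 2, which entered none of the main tests, so that AcfC Stage 3 had n = 5 there. Its values are still given.

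The early *Drosophila* embryo is a syncytium, in which nuclei divide without cell division on RNA and protein supplied by the mother. Cellularization is the step at which the plasma membrane grows inwards between the cortical nuclei and closes each into a cell. It needs a short burst of transcription from the embryo's own genome, and the genes switched on for it are among the earliest zygotic genes, typically short and with few or no introns. *nullo* and *bnk* regulate the actin and myosin network at the front of the growing furrow, with *bnk* keeping the network from constricting too early. *Sry-alpha* acts on the same furrow actin. *slam* protein marks the tip of the furrow and recruits RhoGEF2, an activator of the Rho1 GTPase. *halo* redirects the transport of lipid droplets along microtubules at this time. Neither sampled stage is the stage of cellularization itself: Stage 3 lies before it and Stage 8 after it.

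Of the 5 genes, 4 had reads, and their positions are given on the BDGP6.54 annotation of the Release 6 assembly. *nullo* lies on chromosome X at 7049476 to 7050321 on the plus strand and is 1 exon of 846 bp encoding 213 amino acids. *bnk* lies on 3R at 31193362 to 31194389 on the plus strand and is 1 exon of 1028 bp encoding 303 amino acids. *halo* lies on 2L at 1517533 to 1518148 on the minus strand and is 1 exon of 616 bp encoding 109 amino acids. The 3 shortest members thus have no intron, which holds for 2114 of 13728 protein-coding genes (15.4%). *slam* is longer. It lies on 2L at 6372388 to 6377284 on the plus strand, with 4117 bp of exon, transcripts of 2 and 3 exons, and a protein of 1173 amino acids.

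*nullo* and *bnk* each sit inside the span of a larger gene on the other strand, and the libraries did not keep strand. *nullo* lies within *CG12541* and *bnk* within *mesh*, which encodes a septate junction protein. The exons do not overlap. Both host genes had almost no reads at Stage 3: *CG12541* had at most 1 read in any embryo and *mesh* at most 4. At Stage 8 *CG12541* had 4 to 21 reads and *mesh* 22 to 72. Reads from an unspliced host transcript could not be told apart from reads of *nullo* or *bnk* at that stage.

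*Sry-alpha* had no reads in these files, with 0 counts in all 24 embryos, as had *Sry-beta*, a zinc-finger gene of the same cluster. The annotation release that the authors counted with was not used here. In the later BDGP6.54 annotation both have the same span, 3R 30039719 to 30043071, and all 3300 bp of *Sry-alpha* exon (100%) are shared with *Sry-beta*. The authors counted with STAR, which assigns a read only where it overlaps a single gene. Among protein-coding genes whose exon bases are all shared, 351 of 356 (98.6%) had no read in any embryo, against 1077 of 9315 (11.6%) of those that share none. The neighbouring genes on either side were read in every embryo, *janA* with 114 to 383 counts and *Sry-delta* with 203 to 556. If the exons overlap likewise in the authors' release, which was not tested, a count of 0 gives no level and no limit, and *Sry-alpha* enters no comparison below.

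Each embryo was read to between 4213692 and 11935129 counts, with 2030997 to 7639980 on protein-coding genes. Levels are given as read counts or as CPM, counts scaled to the library size on protein-coding genes with edgeR's TMM factors over all 24 embryos. A count of 0 allows up to 3 counts, which is 0.38 to 0.66 CPM at Stage 3 and 0.538 to 1.51 CPM at Stage 8. Such limits, and the intervals on counts, cover counting error only. *Acf* itself was lower in AcfC than in OrR, with 121.8 ± 13.59 CPM (SD, n = 5) against 646.7 ± 26.36 (n = 6) at Stage 3 and 51.91 ± 10.97 (n = 6) against 495.2 ± 13.03 (n = 6) at Stage 8. The log2 fold changes were −2.40 and −3.25 (edgeR adjusted *P* = 2.10e-10 and 3.71e-10). The stage labels were checked with maternal and gastrula genes. The 7 matched maternal determinants summed to 6426 to 7065 CPM in OrR and 7221 to 7993 in AcfC at Stage 3. At Stage 8 they summed to 1408 to 1624 CPM in OrR and 1355 to 1868 in AcfC. By gene, 6 of the 7 in OrR and 5 in AcfC fell between the stages, and *gro*, a corepressor, rose in both. Between genotypes at Stage 3, 1 of the 7 had an edgeR adjusted *P* under 0.1, where 12% of all genes tested did. It was *stg*, higher in AcfC (log2 fold change 0.35, edgeR adjusted *P* = 0.00172). In DESeq2 4 of the 7 were under 0.1, where 1051 of all genes were, against 877 in edgeR. Of the 9 matched gastrula genes, 7 of 8 tested in OrR and 9 of 9 in AcfC were higher at Stage 8. The left-out AcfC replicate 2 stood apart. It had 102 reads of *sca* and 61 of *twi*, where the other 11 Stage 3 embryos had at most 2 and 3.

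At Stage 3, reads of *nullo* were present in 1 of 6 OrR embryos and in 4 of 6 AcfC embryos. The 6 OrR embryos had 0, 0, 41, 0, 0 and 0 reads in the order of their replicate numbers. The 6 AcfC embryos had 20, 1, 0, 24, 4 and 0 reads, the second being the left-out embryo. OrR replicate 3 had the highest value of all, at 7.98 CPM, and the range of the OrR embryos contained that of the AcfC embryos.

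*bnk* was found in the same embryos. Its OrR counts were 0, 0, 40, 0, 0 and 0, and its AcfC counts were 38, 10, 0, 43, 5 and 0. Again OrR replicate 3 stood with AcfC replicates 1 and 4, at 7.78 CPM against 7.66 and 8.61 CPM. AcfC replicate 5 lay far lower at 0.773 CPM, and the remaining embryos except the left-out one had no read.

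*halo* was found in the same embryos at lower counts. The OrR embryos had 0, 0, 8, 0, 0 and 0 reads and the AcfC embryos 14, 4, 0, 10, 1 and 0. The highest level was 2.82 CPM in AcfC replicate 1. Thus the embryo that was highest differed between the 3 genes, but the 3 embryos above the rest were OrR replicate 3 and AcfC replicates 1 and 4 each time. Of the reads on *nullo* and *bnk* together, those on *nullo* were 50.6% of 81 reads in OrR replicate 3 (95% Wilson interval 40.0 to 61.2%), 34.5% of 58 in AcfC replicate 1 (23.6 to 47.3%) and 35.8% of 67 in AcfC replicate 4 (25.4 to 47.8%), and the 3 intervals overlapped.

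**Figure D1:**
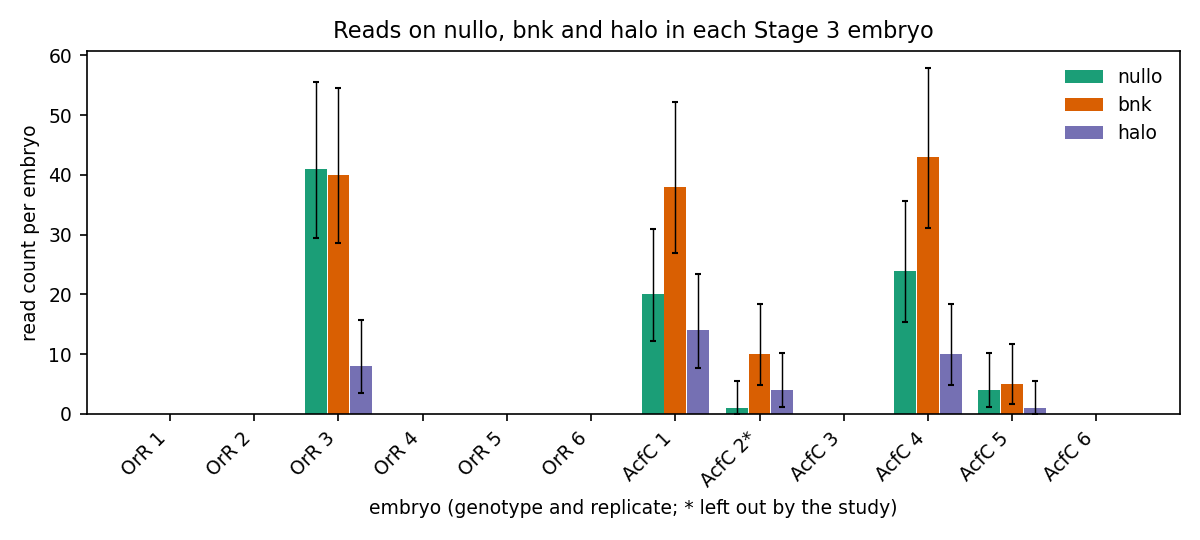
Read counts of *nullo*, *bnk* and *halo* (y axis) in each of the 12 Stage 3 embryos (x axis), with 95% Poisson intervals on counts above 0; the asterisk marks the AcfC embryo left out by the study. OrR replicate 3 and AcfC replicates 1 and 4 have 20 to 43 reads of *nullo* and *bnk*, and 5 OrR embryos have none.

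*slam* behaved differently at Stage 3, with reads in every embryo. The OrR embryos had 245.5, 248.1, 292.7, 248.5, 226.1 and 221.8 CPM, and the AcfC embryos 308.2, 254.7, 241.6, 312.0, 292.0 and 257.5 CPM, both in the order of replicates. The lowest of these rests on 1099 reads. The 3 embryos with many reads of *nullo* and *bnk* were also the 3 highest for *slam*, at 292.7 CPM in OrR replicate 3 and at 308.2 and 312.0 CPM in AcfC replicates 1 and 4, although AcfC replicate 5 came close at 292.0 CPM. The coefficient of variation of *slam* was 10.2% in OrR and 11.1% in the 5 AcfC embryos.

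The question of the study is whether loss of *Acf* changes transcription in the early embryo, and no member passed the test at Stage 3. *slam* was 282.3 ± 31.29 CPM in AcfC (SD, n = 5) and 247.1 ± 25.17 in OrR (n = 6). Its log2 fold change was 0.20 (SE 0.08), with an adjusted *P*-value of 0.169 in edgeR's quasi-likelihood test (unadjusted 0.0336). *slam* was the only member that passed the filter on low counts in this comparison, so that 0 of 1 was called (0 also in DESeq2), where 12% of the 7303 genes tested were (called means an adjusted *P* under 0.1). The 2 groups of *slam* values overlapped, and an exact two-sided permutation test of the CPM gave *P* = 0.0649 (the smallest possible is 0.00433).

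Without the filter, *nullo*, *bnk* and *halo* also had values and were not called, where 6.84% of 9923 genes were. The fitted log2 fold changes were 0.56 for *nullo* (95% interval −2.42 to 3.55, edgeR adjusted *P* = 0.849), 1.47 for *bnk* (−1.46 to 4.40, 0.513) and 1.99 for *halo* (−0.82 to 4.81, 0.416). The intervals are wide and include no change, so that differences of this size were not detectable with these embryos. Exact two-sided permutation tests of the CPM gave *P* = 0.697, 0.303 and 0.212.

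Single embryos moved these values. Without AcfC replicate 4 the log2 fold changes were −0.15 for *nullo* and 0.76 for *bnk*, and without AcfC replicate 1 they were 0.08 for *nullo*, 0.92 for *bnk* and 1.11 for *halo*, with no call. Without OrR replicate 3, the other 5 OrR embryos had 0 reads of *nullo*, *bnk* and *halo*, and all 3 genes were called in the fit without the filter, with edgeR adjusted *P*-values of 0.0391, 0.0348 and 0.0622. Calls were then more common among all genes. In the fit with the filter, 1842 genes were called without this embryo, against 877 with it. The share for the fit without the filter is not given here. Against a floor of 3 counts per library, the AcfC mean was then at least 4.20-fold higher for *nullo*, 7.57-fold for *bnk* and 2.21-fold for *halo*. The omitted embryo held all OrR reads of these 3 genes, so that leaving it out set OrR to 0 and fixed the direction. The AcfC means rest mainly on replicates 1 and 4. These calls and folds thus cannot decide whether the genotypes differ. *slam* was called as well, in the fit with the filter, at a log2 fold change of 0.26 (adjusted *P* = 0.0322), and it was also called without AcfC replicate 3 (0.0707). The exact permutation test without OrR replicate 3 gave *P* = 0.0317 for *slam* and 0.167 for each of the other 3. For those 3 genes only AcfC embryos then had reads. With so many embryos at 0, 0.167 is the smallest *P* possible, so that this test could not decide. Of the 5 AcfC embryos, 2 also had no read of these 3 genes.

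Other RNAs in these Stage 3 embryos differed along the same lines. Of 20 other early zygotic genes (a list of 22 without *kuk* and *trbl*, which every Stage 3 embryo held, a choice made after their values were seen), OrR replicate 3 had 523 reads, AcfC replicate 1 had 514 and AcfC replicate 4 had 426. The other 5 OrR embryos had 6 to 12 reads of these 20 genes together, and AcfC replicates 3 and 6 had 17 and 6. AcfC replicate 5 lay between, with 93. The 3 embryos with the most reads of the members thus also had the most of these genes, and 1 of them was OrR and 2 were AcfC.

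The left-out AcfC replicate 2 differed from these 3 in which genes it held. It had 418 reads of the 20 genes but only 15 of *nullo*, *bnk* and *halo* together, where the 3 embryos had 72 to 89. It held the most reads of *sog* (90), *Kr* (39), *odd* (30) and *ftz* (26), the first encoding a secreted inhibitor of BMP signals and the others being segmentation genes. These were named because they were highest in that embryo, so that the contrast is a description of it alone. In the other 11 embryos *Kr*, *odd* and *ftz* were highest in the same 3 embryos as the members, with 12, 10 and 7 reads in OrR replicate 3, 7, 12 and 12 in AcfC replicate 1, and 7, 4 and 9 in AcfC replicate 4.

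The genes whose Stage 3 pattern was most like that of the members were ranked by Pearson's *r* with the mean centred profile of *nullo*, *bnk*, *slam* and *halo* over the 12 embryos, as a description. The top 10 of 6757 genes were *Bro* (0.998), *scw* (0.998), *CG18269* (0.998), *CG13711* (0.994), *CG15480* (0.994), *tsg* (0.988), *bard* (0.987), *CG15876* (0.987), *CG43184* (0.986) and *amos* (0.984). *scw* encodes a BMP ligand and *tsg* a BMP-binding protein of dorsal patterning, *Bro* a partner of Runt, and *amos* a proneural transcription factor. All 10 are single-exon genes, like *nullo*, *bnk* and *halo*, and 4 of them (*Bro*, *scw*, *tsg* and *amos*) are also on the early zygotic list. Without OrR replicate 3, where the mean profile was highest, their *r* was 0.98 to 0.998. *scw*, for example, had 69 reads in OrR replicate 3, 66 and 53 in AcfC replicates 1 and 4, 6 in the left-out embryo, and none in 5 OrR embryos. The profile correlation of *nullo* with *bnk* was 0.96, of *nullo* with *halo* 0.916 and of *bnk* with *halo* 0.98, and of *slam* with them 0.829 to 0.861. These points share their libraries and depth, and most of them lie at 0. Over the 12 Stage 8 embryos the same 6 correlations ran from −0.554 to 0.358.

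**Figure D2:**
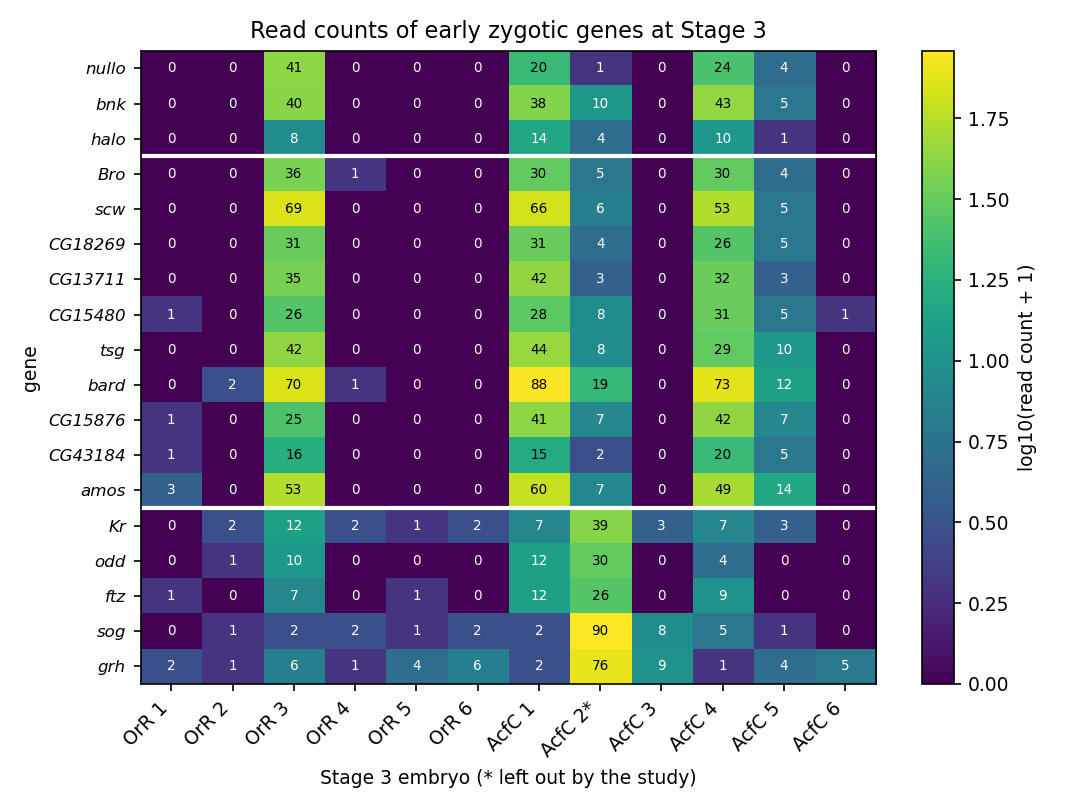
Read counts (numbers and colour, log10 of count + 1) of *nullo*, *bnk* and *halo*, of the 10 genes most like them and of 5 other early zygotic or patterning genes (rows) in the 12 Stage 3 embryos (columns; the asterisk marks the embryo left out by the study). Columns OrR 3, AcfC 1 and AcfC 4 are high in the upper 2 blocks, and AcfC 2 is high in the lowest block, with 90 reads of *sog*.

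Markers of other cells were read in the same embryos. The 12 eggshell and follicle cell genes came to 0.322 to 4.36 summed CPM in OrR and 2.29 to 33.2 in AcfC at Stage 3, with 1 to 9 of the 12 present in OrR and 4 to 9 in AcfC. They came to 0.973 CPM in OrR replicate 3, 15.5 in AcfC replicate 1 and 3.20 in AcfC replicate 4, and the highest sum was that of AcfC replicate 5. The vitelline membrane gene *Vm32E* was at 0 in every Stage 3 embryo but AcfC replicate 5, which had 1 read. Of 4 of these genes tested, the chorion genes *Cp36* and *Cp38* were called higher in AcfC at Stage 3 (edgeR adjusted *P* = 0.0258 and 0.0798), where 12% of all genes were. The groups overlapped for both. *Cp36* had 84 reads in AcfC replicate 5 and 19 in replicate 1, but at most 2 in replicates 3, 4 and 6. *Cp38* had 79 and 17, and at most 7. The 5 matched pole cell genes, whose RNAs the mother supplies, summed to 1670 to 1988 CPM in OrR and 1937 to 2193 in AcfC. Of these 5, 3 were called higher in AcfC, where 12% of all genes were called, and the groups overlapped for each. They were *pgc*, *ovo* and *gcl* (log2 fold changes 0.33, 0.18 and 0.12, edgeR adjusted *P* = 0.0907, 0.0820 and 0.0908). The part of these RNAs in the values of the members was not tested. In whole embryos, a change in the number of nuclei or cells that transcribe a gene and a change in RNA per cell cannot be told apart. The libraries came in 2 index sets. OrR replicate 3, with all OrR reads of *nullo*, *bnk* and *halo* at Stage 3, and AcfC replicate 1 were in one set and AcfC replicate 4 in the other. With index set as a covariate the Stage 3 log2 fold changes were 1.69 for *nullo*, 2.39 for *bnk* and 2.49 for *halo*, still not called (edgeR adjusted *P* = 0.563, 0.377 and 0.306).

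At Stage 8 all 4 measured genes passed the filter, and none was called between the genotypes (0 of 4 in edgeR and in DESeq2, and 0 at an unadjusted *P* under 0.05), where 4.28% of 9448 genes were. *nullo* had 7, 2, 3, 2, 1 and 0 reads in OrR and 3, 0, 2, 3, 1 and 1 in AcfC. *bnk* had 4, 4, 4, 3, 3 and 2 reads in OrR and 7, 8, 14, 1, 5 and 0 in AcfC. Most of these embryos lie near the limit that a count of 0 allows, while *bnk* reached 2.51 CPM in AcfC replicate 3 (limit 0.538) and *nullo* 1.46 CPM in OrR replicate 1 (limit 0.627). The log2 fold changes were −0.39 (95% interval −1.92 to 1.13, edgeR adjusted *P* = 0.842) and 0.75 (−0.32 to 1.82, 0.495), so that a difference was not detectable at this depth.

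*halo* and *slam* had more reads at Stage 8. The OrR embryos had 22.3 (lowest), 24.5 (median) and 34.4 (highest) CPM of *halo*, and the AcfC embryos 21.5, 27.8 and 52.5, the last being replicate 6. The means were 26.15 ± 4.478 (SD, n = 6) and 31.23 ± 11.03 (n = 6), and the groups overlapped. For *slam* the OrR embryos had 23.9, 26.6 and 49.3 CPM (30.93 ± 9.922, n = 6) and the AcfC embryos 14.1, 22.8 and 31.7 (22.95 ± 6.266, n = 6), again with overlap. The log2 fold changes were 0.24 for *halo* (95% interval −0.17 to 0.64, edgeR adjusted *P* = 0.584) and −0.44 for *slam* (−0.92 to 0.04, 0.352).

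**Figure D3:**
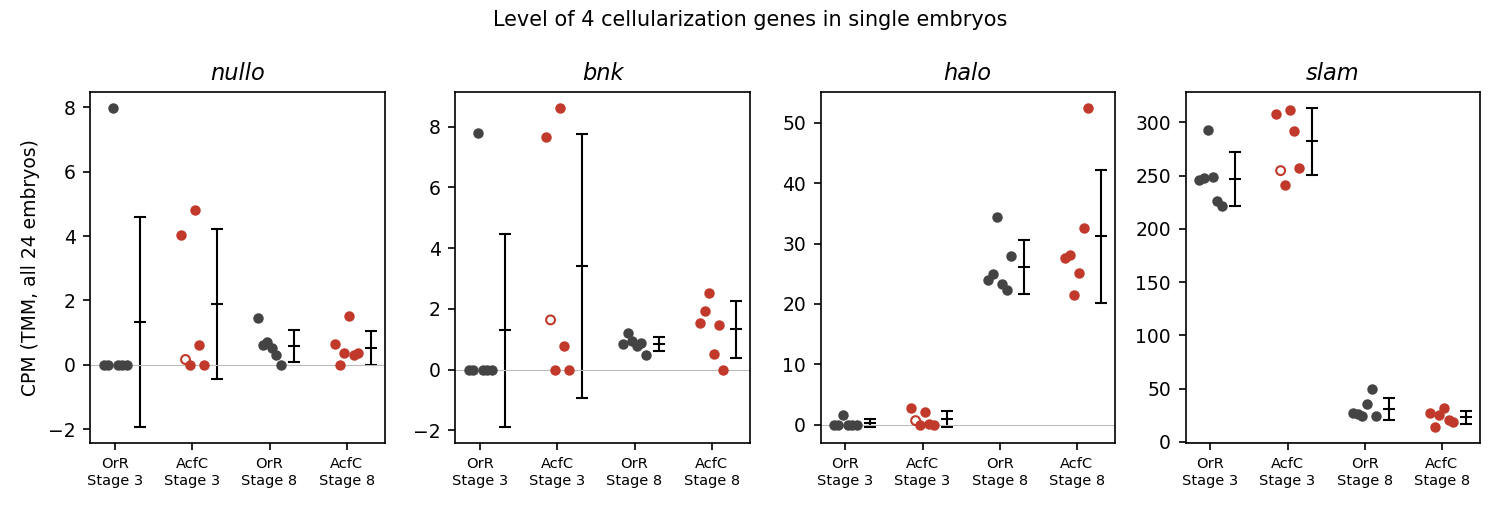
CPM (y axis) of *nullo*, *bnk*, *halo* and *slam* in single embryos of the 4 groups; points are embryos, the open circle the AcfC Stage 3 embryo left out, and bars the mean ± SD without it. *slam* falls from 222 to 312 CPM at Stage 3 to 14.1 to 49.3 at Stage 8, and *halo* rises to 21.5 to 52.5.

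Between Stage 3 and Stage 8, *slam* fell and *halo* rose in both genotypes. *slam* dropped by 2.95 on the log2 scale in OrR (SE 0.16, edgeR adjusted *P* = 7.16e-11) and dropped by 3.58 in AcfC (SE 0.17, 1.56e-10). *halo* rose by 6.87 (SE 0.52, 3.60e-09) in OrR and 5.11 (SE 0.60, 2.12e-06) in AcfC. With OrR replicate 3 left out, all 5 remaining OrR Stage 3 embryos lacked *halo* reads, and the rise was at least 58.1-fold against the floor. In AcfC the rise was 6.00 (adjusted *P* = 1.49e-06) without Stage 3 replicate 1, the embryo with the most *halo* reads at that stage. In OrR 48.5% of the genes tested were called higher at Stage 8 and 39.6% lower, and in AcfC 51.5% and 34.7%, so that passing this test in a direction was common. *halo* was higher in each of the 12 Stage 8 embryos than in any Stage 3 embryo, and *slam* lower in each. The share of all genes that separate the stages likewise is not given here, so that this separation cannot be called particular to the members. Levels on a per-length scale put *slam* first at Stage 3 (60.0 CPM per kb in OrR, 68.6 in AcfC), with *nullo*, *bnk* and *halo* far lower and not separated beyond their spread, and *halo* first at Stage 8 (42.5 and 50.7), above *slam* (7.51 and 5.58) and the other 2.

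*nullo* and *bnk* did not pass the test between the stages in either genotype. In OrR *bnk* had a log2 fold change of −0.40 (SE 1.21, edgeR adjusted *P* = 0.761) and *nullo*, without the filter, −0.91 (SE 1.24, 0.501), where 79.3% of genes were called without the filter. In AcfC the values were −1.16 (SE 1.00, 0.290) and −1.89 (SE 1.07, 0.116), and without Stage 3 replicate 4 they were −0.44 and −1.16. OrR replicate 3 decided the sign in OrR. Without it the Stage 3 embryos had no reads and Stage 8 was called higher for both, with edgeR adjusted *P*-values of 0.00114 for *nullo* and 2.53e-05 for *bnk*. The Stage 8 means of 0.5935 and 0.8468 CPM were 1.32 and 1.88 times the Stage 3 floor. They lay below or within the 0.627 to 0.901 CPM that a count of 0 allows in OrR Stage 8 embryos. They thus set no lower bound on a rise. In AcfC *nullo* was called lower at Stage 8 when Stage 3 replicate 3, 5 or 6 or Stage 8 replicate 4 was left out (adjusted *P* = 0.0562, 0.0924, 0.0407 and 0.0806).

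Whether the stage change differed between the genotypes was tested in 1 fit of the 4 groups. None of the 4 members was called (0 in DESeq2 as well; *slam* alone had an unadjusted *P* under 0.05), where 2.72% of 8698 genes were. *slam* had an interaction of −0.63 on the log2 scale (SE 0.23, 95% interval −1.11 to −0.15, edgeR unadjusted *P* = 0.0119, adjusted 0.184). Without OrR Stage 3 replicate 3, *nullo*, *bnk* and *halo* were called in the interaction (adjusted *P* = 0.0663, 0.0821 and 0.0764). In that fit 542 of all genes were called, against 237 with this embryo. It held all OrR Stage 3 reads of these genes, so that these calls cannot decide whether the stage change differed.

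**Figure D4:**
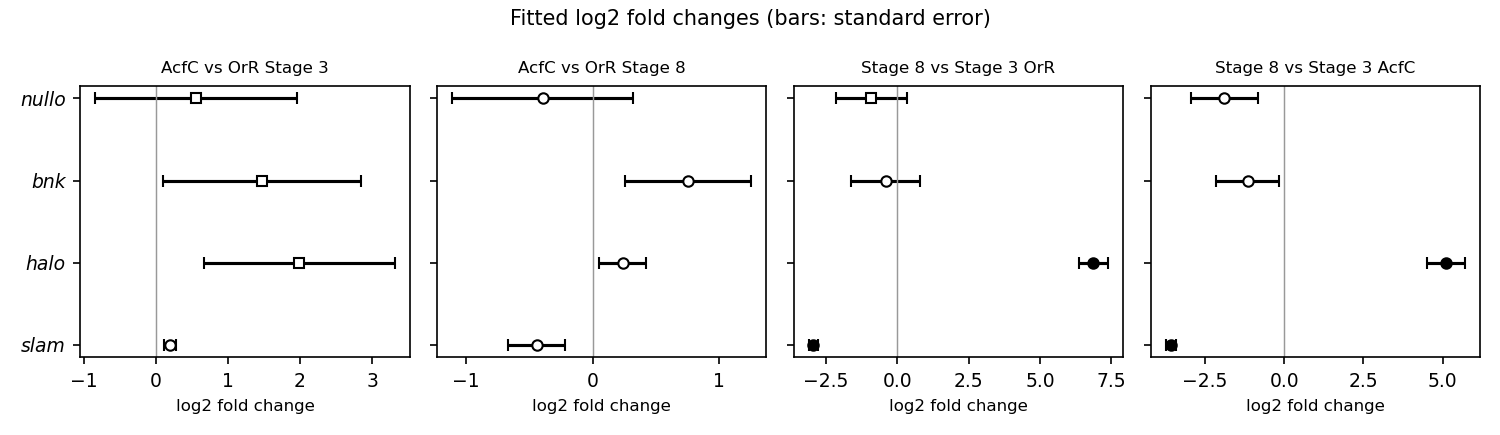
Log2 fold changes (x axis) of *nullo*, *bnk*, *halo* and *slam* for AcfC against OrR at Stage 3 and Stage 8 and for Stage 8 against Stage 3 in each genotype, with standard errors; filled symbols passed the test (adjusted *P* under 0.1), circles passed the filter on low counts and squares are from the fit without it. Only *slam* (−2.95 and −3.58) and *halo* (6.87 and 5.11) between the stages were called.

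Of the maternal genes that build the furrow and the cytoskeleton, 33 of 34 listed were in the table, and all were tested. At Stage 3, 3 rose and 1 fell in AcfC, and these 4 of 33 are a share close to the 12% of all genes. They are *dlg1*, a scaffold of cell junctions (log2 fold change 0.18, edgeR adjusted *P* = 0.0393), *nuf*, which recruits recycling vesicles to furrows (0.17, 0.0237), *bif*, an actin-binding protein (0.14, 0.0826), and *Klp61F*, a spindle kinesin (−0.17, 0.0420). DESeq2 called 6 of the 33, and edgeR called 9 without OrR replicate 3. Both also called more of all genes, 1051 in DESeq2 and 1842 without OrR replicate 3, against 877 in the main fit. These counts thus show no excess of furrow genes. The median over the 33 was 0.03, against −0.0031 over all genes tested. At Stage 8, 1 of the 33 was called, where 4.28% of all genes were (4 of the 33 at an unadjusted *P* under 0.05, 1 called in DESeq2). It is *kst*, the heavy spectrin of the furrow membrane skeleton. It was at 209.6 ± 39.64 CPM in AcfC (SD, n = 6) and 114.6 ± 18.19 in OrR (n = 6), a log2 fold change of 0.86 (adjusted *P* = 0.00335), and the groups did not overlap. *kst* was also the only one of them called in the interaction (1.06, adjusted *P* = 0.00224).

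Between the stages, 19 of the 33 furrow genes rose and 12 fell in OrR, and 18 rose and 11 fell in AcfC, where 48.5% and 39.6% of all genes did in OrR and 51.5% and 34.7% in AcfC. The median log2 fold changes were 0.34 and 0.38, against 0.20 and 0.40 over all genes tested. *spg*, an exchange factor for small GTPases, fell from 194.3 ± 18.76 to 16.77 ± 2.053 CPM in OrR (SD, n = 6), and *ena*, an actin-elongation factor, rose from 165.2 ± 7.536 to 745.7 ± 74.26. Of the 22 other early zygotic genes, 9 passed the filter at Stage 3, and 0 of the 9 were called between genotypes (0 at an unadjusted *P* under 0.05 in edgeR and 0 called in DESeq2). Without OrR replicate 3, 7 passed and 2 were called, where 1842 of all genes were, against 877 with it. At Stage 8, 0 of 22 were called (4 at an unadjusted *P* under 0.05, 0 in DESeq2). Between the stages all 21 tested rose in OrR, and 20 of 22 rose and 1 fell in AcfC. *sog* rose from 0.210 ± 0.142 to 537.9 ± 87.32 CPM in OrR. Of the 5 activators listed as maternal, 3 rose and 2 fell in each genotype. *grh* rose most, by 9.87 in OrR and 9.05 in AcfC, but was almost absent at Stage 3 (means of 0.519 and 0.770 CPM). *zld*, the factor that opens early zygotic genes, rose by 1.32 in OrR and 1.16 in AcfC. Between genotypes, 0 of the 5 were called by edgeR at either stage (2 at Stage 3 and 1 at Stage 8 at an unadjusted *P* under 0.05, and 2 and 0 in DESeq2). At Stage 3 DESeq2 called 1051 of all genes, against 877 in edgeR. *Sry-delta*, a gene of the *Sry-alpha* cluster, rose by 0.89 in OrR and 0.90 in AcfC.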

How the data were processed

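Single embryos were measured by rRNA-depleted, nondirectional RNA-seq. The authors mapped reads with STAR 2.5.0a to the FlyBase r6.09 release and deposited raw counts per gene for 24 embryos, 1 column each. ERCC spike-ins described in the methods were not used here. Which AcfC Stage 3 embryo the study left out is not in the labels. It was taken to be replicate 2, since leaving it out brought the mean normalized counts to those the study lists. Genotype, stage and replicate came from the labels. The tests set the difference between groups against the spread between embryos. Embryos do not replicate the fly line, so that a difference of genotype and a difference of line cannot be told apart.

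Computations used R 4.3.3 with edgeR 4.0.16 and DESeq2 1.42.0. Of the 17370 genes, 13728 are protein-coding in Ensembl BDGP6.54. Following the study, only these were tested, a gene was dropped where 50% or more of the compared embryos had no count, stages and genotypes were fitted separately, and the adjusted p cutoff was 0.1. The main test was edgeR's two-sided quasi-likelihood test with TMM, a prior count of 0.125 and Benjamini-Hochberg adjustment over all genes tested. A member that the filter left out is reported from the fit without a filter. Intervals use the fit's SE and degrees of freedom. The test was checked on simulated data. Alternatives were DESeq2, other scalings and filters, covariates and leaving out embryos. The likeness ranking used log2(CPM + 1) and genes with at least 10 counts in 1 or more Stage 3 embryos. Named genes were the members, *Acf*, up to 4 called genes per list and comparison with the largest change (mean normalized count 10 or more), and the 10 genes most like the members. Members and lists were chosen with earlier results of these data known.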

Additional observations from a re-analysis of the deposited data

Results flagged for a closer look

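Of 16 groups of 6 embryos checked for a value far from the others (the 4 measured genes in the 4 groups), 4 had one. Chance gives about 1 in 20 groups for values that vary in all embryos. That rate does not hold where 5 of 6 embryos are at 0, since any read in the sixth then stands apart. OrR Stage 3 replicate 3 was far from the 5 others for 3 genes, at 7.98 CPM for *nullo*, 7.78 CPM for *bnk* and 1.56 CPM for *halo*, where each of the 5 others had 0. AcfC Stage 8 replicate 6 was far from the others for *halo*, at 52.5 CPM with the next value at 32.6. The 3 values of OrR replicate 3 are of this kind and come from the same library.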

How the results depend on the processing

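At Stage 3, 877 genes were called between genotypes, 498 at a cutoff of 0.05, 1341 with all 6 AcfC embryos, 510 in 1 fit of 4 groups, 475 to 1842 leaving out each embryo in turn (1842 without OrR replicate 3, 555 and 576 without OrR replicates 2 and 6, 475 and 495 without AcfC replicates 1 and 4) and 2261 without OrR replicate 3 but with all 6 AcfC embryos, a choice made after seeing the data. At Stage 8, 404 were called, 178 at 0.05, 623 in DESeq2, 908 in 1 fit and 193 to 449 leaving out each embryo (218, 268, 193 and 247 without OrR replicates 1, 3, 4 and 6, and 245 without AcfC replicate 2). In the interaction, 237 were called, 135 at 0.05, 557 in DESeq2, 447 with all 6 AcfC embryos, 153 to 542 leaving out each embryo (542 without OrR Stage 3 replicate 3, 153 without AcfC Stage 3 replicate 4, 401 and 385 without AcfC Stage 8 replicates 3 and 4) and 718 under the added choice. In the fits with the filter on low counts, members called ranged from 0 to 1 at Stage 3 and 0 to 3 in the interaction when leaving out each embryo (1 and 4 under the added choice), and from 2 to 3 between stages in either genotype. Without the filter and without OrR Stage 3 replicate 3, *nullo*, *bnk* and *halo* were also called at Stage 3. Of 457 fold changes of members under alternatives, 431 kept direction and side of the cutoff, 20 passed it newly in the same direction, none lost it and 6 reversed. Among the reversed, *nullo* and *bnk* between stages in OrR without Stage 3 replicate 3 also passed it newly (edgeR adjusted *P* = 0.00114 and 2.53e-05). Leaving out each embryo, *nullo* ran from −0.148 (without AcfC replicate 4) to 6.54 at Stage 3 and from −0.811 to 0.123 (without OrR replicate 1) at Stage 8, and between stages in OrR *nullo* ran from −1.48 to 4.77 and *bnk* from −0.71 to 5.21. The values of 6.54, 4.77 and 5.21 are without OrR Stage 3 replicate 3, depend on the prior count and are no bounds. With a replicate block, *nullo* (0.89) and *bnk* (1.31) reversed between stages in OrR; it gave 312 calls at Stage 3 and 252 at Stage 8. The numbers do not pair the embryos, since same-numbered embryos correlated from −0.556 to 0.237. Depth limits *nullo* and *bnk* at Stage 8, and the causes were not tested.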
